A study of Mus musculus with 8 samples.

Results

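Genes of the interferon response and of antigen presentation were examined in kidneys of mice treated with cisplatin, a chemotherapy drug that damages kidney tubules. They were chosen by name: protein-coding genes whose symbol belongs to the major histocompatibility complex (MHC) class I and class II systems, the interferon-induced families, or the interferons with their receptors, STATs and IRFs. The rule found 75 genes among 12286 protein-coding genes with usable counts. They comprise 16 class I genes, 5 class II genes, 28 interferon-induced genes, 23 signaling genes and 3 genes that share a name stem without belonging to the pathway (Irf2bp1, Irf2bp2 and Isg20l2). The low-count filter passed 53 of the 75: 10 class I, 5 class II, all 28 interferon-induced, 7 signaling and the 3 genes of the name stem. Among the 22 that did not pass, 16 were interferons and 6 were H2-M genes of class I. Another 75 protein-coding genes that match by name, among them Tap1, Cd74, Ciita, Irf1, Irf7 and Stat2, stand in rows with 10 values for 8 named libraries and were not analyzed here.

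Kidney RNA of 4 control and 4 cisplatin-treated mice was sequenced, 1 library per mouse. All mice were wild type. The methods describe male C57/BL6J mice, an intraperitoneal injection of saline for the controls or of cisplatin at 23 mg/kg, and collection of the kidneys at 72 h. No age was stated, and the groups shared strain, genotype and route of injection. The controls carry the numbers 1, 2, 3 and 5 and the cisplatin libraries the numbers 1, 3, 4 and 6. The p-values measure the spread between these mice.

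Interferons are secreted signals that bind receptors of the JAK-STAT type. Type I and III interferons act through a complex that contains IRF9, on a short promoter element that carries repeated GAAA units, and interferon gamma acts on the GAS element. MHC class I presents peptides made by the proteasome on nearly every nucleated cell, whereas MHC class II presents endocytosed peptides and is mainly a feature of dendritic cells, macrophages and B cells. In the kidney, tubular and endothelial cells can also respond to interferon.

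Library facts come before the results, since they touch several of them. Total counts over the usable rows ran from 10953338 to 16701599 per library, at which 3 counts correspond to 0.180 to 0.274 CPM, the count scaled to a common library size. Beyond the treatment, the libraries fell into a first set (controls 1, 2 and 3, cisplatin 1 and 3) and a second set (control 5, cisplatin 4 and 6) along the second principal component, which held 16.0% of the variance. These sets were defined from the data and are not groups of the study. Cisplatin 1 and 3 had at most 3 counts of Kdm5d or Eif2s3y, genes of the Y chromosome, while each of the other 6 libraries had at least 274 of either. This goes against the description of all mice as male, so results are also given without cisplatin 1 and 3. The 12 proximal tubule markers, which check the kidney label, summed to 68216 to 82184 CPM in controls and to 1253 to 14972 CPM after cisplatin, and all 12 fell. In whole tissue, fewer cells of a type and less RNA per cell cannot be told apart.

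The promoters of the genes differ in the elements they carry. Promoter sequences from RefSeq (GRCm38.p6) were found for 39 of the 53 genes tested. They run from 250 bases before to 50 after the RefSeq start nearest to each gene's annotated start. The IRF-binding core was searched as GAAANNGAAA, the GAS element as TTCNNNGAA and the CCAAT box as CCAAT, each on both strands, with overlapping matches counted. The IRF core was present in 13 of 18 interferon-induced promoters (72.2%) and in 3.45% of 32544 different promoters of all genes. The stretches below are examples of interferon-induced promoters with the core, picked by name and not by distance. Capitals mark each match within the printed part. The Isg15 stretch lies at chr4:156200819-156200938, minus strand. The Oas1a stretch lies at chr5:120907526-120907645, minus strand. The Gbp3 stretch lies at chr3:142559924-142560025, plus strand. The Ifit1 stretch lies at chr19:34640769-34640870, plus strand. The Oas3 stretch lies at chr5:120777662-120777779, minus strand.
Isg15: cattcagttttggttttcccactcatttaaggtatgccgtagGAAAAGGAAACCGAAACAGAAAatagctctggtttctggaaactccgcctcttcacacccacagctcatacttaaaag
Oas1a: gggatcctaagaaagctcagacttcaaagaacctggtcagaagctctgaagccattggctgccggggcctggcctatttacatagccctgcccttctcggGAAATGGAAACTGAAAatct
Gbp3: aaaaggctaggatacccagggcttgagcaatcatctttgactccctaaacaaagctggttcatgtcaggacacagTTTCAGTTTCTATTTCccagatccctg
Ifit1: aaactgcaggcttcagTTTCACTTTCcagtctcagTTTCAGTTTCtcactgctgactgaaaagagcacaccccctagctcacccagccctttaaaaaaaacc
Oas3: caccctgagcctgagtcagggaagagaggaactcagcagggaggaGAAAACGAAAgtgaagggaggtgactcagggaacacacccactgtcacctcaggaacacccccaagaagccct

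The core was found both in genes that rose and in genes that were not called. Among promoters of interferon-induced genes called up it was present in 5 of 7 (71.4%), and among those not called in 8 of 11 (72.7%). No promoter was found for Gbp4 and Gbp10, the interferon-induced genes called down, so these could not be examined. Usp18 and Ifi27l2b, which were called up, had none either. The 3 matches of Isg15 overlap and begin 78, 72 and 66 bases before the start, and the matches of Ifit1, which was not called, begin 104 and 85 bases before it. Among class I promoters, 2 of 9 had the IRF core (B2m and H2-T23), and none of the 4 class I genes called up had it in this window. Only exact matches of GAAANNGAAA were counted, so a variant of the element in these promoters would be missed. GAS matches were found in 4 of 18 interferon-induced, 1 of 9 class I, 1 of 4 class II and 1 of 5 signaling promoters, against 8.33% of all promoters.

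Most MHC promoters carried the CCAAT box, the binding site of the factor NF-Y, which is part of the conserved MHC promoter module. It was present in 7 of 9 class I and 4 of 4 class II promoters, against 37.4% of all promoters. The H2-DMa promoter, 1 of these, lies at chr17:34125268-34125567, well upstream of the counted gene, which begins at 34135182. No promoter was found for H2-Ab1 of class II or for Tap2 of class I. Below, capitals mark the box, which reads ATTGG on the opposite strand. The examples are 2 class II genes that fell, 1 class I gene that rose and B2m, which was not called. The H2-Ob stretch lies at chr17:34238785-34238902, plus strand. The H2-DMb2 stretch lies at chr17:34145129-34145235, plus strand, within an intron of the annotated gene. The H2-K1 stretch lies at chr17:34000348-34000453, minus strand. The B2m stretch lies at chr2:122147567-122147685, plus strand.
H2-Ob: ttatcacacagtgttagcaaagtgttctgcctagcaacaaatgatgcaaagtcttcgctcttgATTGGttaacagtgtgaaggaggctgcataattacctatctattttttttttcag
H2-DMb2: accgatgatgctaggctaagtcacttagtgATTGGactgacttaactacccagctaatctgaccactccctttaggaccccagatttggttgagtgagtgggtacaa
H2-K1: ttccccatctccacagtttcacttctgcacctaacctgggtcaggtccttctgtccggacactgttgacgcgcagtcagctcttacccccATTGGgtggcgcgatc
B2m: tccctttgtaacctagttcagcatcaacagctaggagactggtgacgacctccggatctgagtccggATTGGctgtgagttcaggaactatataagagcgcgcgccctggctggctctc

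The comparison of cisplatin with control asked which of these genes changed with the injury. Class I genes were up-regulated or not called, class II genes were down-regulated with 1 exception, and interferon-induced genes went both ways. A gene was called when edgeR's quasi-likelihood test gave an adjusted p under 0.05 over all 9141 genes tested and the log2 fold change was at least 1 in size. By this rule 19.2% of all genes tested were called up and 15.7% called down. Of the 10 class I genes tested, 4 rose (40.0%) and 0 fell. Of the 5 class II genes, 4 fell (80.0%) and 0 rose. Of the 28 interferon-induced genes, 9 rose (32.1%) and 2 fell (7.14%). Of the 7 signaling genes tested, 2 rose (28.6%) and 0 fell. The 53 genes together gave 15 calls up (28.3%) and 6 calls down (11.3%).

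Median log2 fold changes were 0.88 for class I, -1.49 for class II, 0.49 for the interferon-induced genes and 0.47 for signaling, against 0.08 over all genes tested. At an unadjusted p under 0.05, 0 class I genes and 0 signaling genes were lower and 0 class II genes were higher. DESeq2 also gave 0 calls in each of these 3 cases. All 4 cisplatin libraries lay above all 4 controls in 15 of the 53 genes and below them in 6, against 23.7% and 22.5% of all genes tested.

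**Figure D1:**
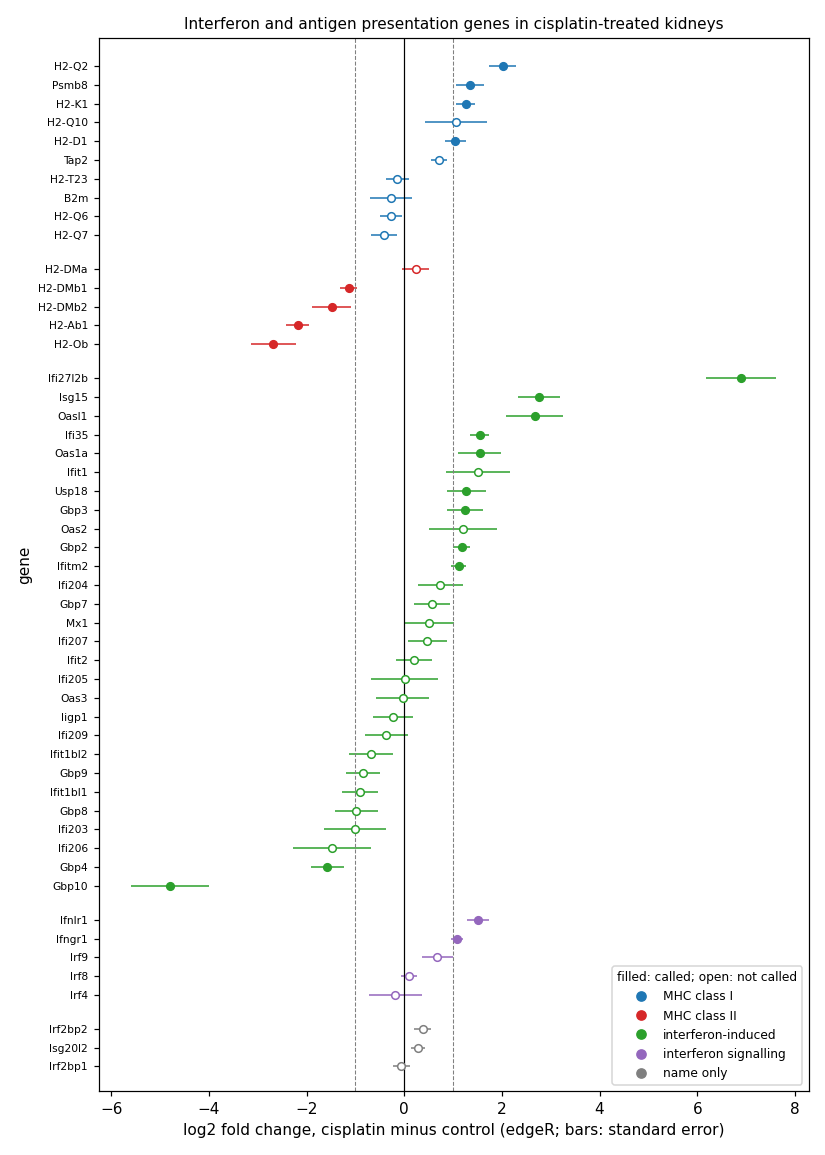
Log2 fold change (x axis, cisplatin minus control, edgeR) of the genes tested (y axis, 2 signaling genes not shown), colored by list, with bars of 1 standard error, filled symbols for called genes and dashed lines at the fold threshold. Class I symbols lie above zero except for H2-T23, B2m, H2-Q6 and H2-Q7, which change sign when scaled by total counts, class II symbols lie below it except H2-DMa, and the interferon-induced genes run from -4.79 (Gbp10) to 6.90 (Ifi27l2b, whose controls held 3 counts in all).

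Among class I genes, the classical heavy chains rose. H2-K1, which presents peptides to CD8 T cells, was measured at 514, 320.1, 474 and 534 CPM in controls 1, 2, 3 and 5, and at 982, 1018, 1232 and 1167 CPM in cisplatin 1, 3, 4 and 6. Every cisplatin library lay above every control. The mean went from 461 ± 96.9 to 1099.6 ± 119 CPM (SD, n = 4 each), and the log2 fold change was 1.26 (SE 0.20, edgeR adjusted p = 0.00073). H2-D1, the second classical heavy chain, was at 512, 326, 463 and 527 CPM in controls and at 746, 835, 1086 and 1095 CPM after cisplatin. These groups did not overlap either, and the 2 lowest cisplatin values were those of cisplatin 1 and 3. Its log2 fold change of 1.04 (SE 0.21, edgeR adjusted p = 0.0030) was close to the fold threshold and lay below it without control 2 (0.90), without cisplatin 4 (0.96) or without cisplatin 6 (0.96), with an adjusted p under 0.05 in each case. With the replicate number as a block it was 0.70, and with the library set as a covariate 0.93.

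Genes of class I peptide supply moved in both directions. Psmb8 was called up, and Tap2 and Psme1 (0.64, SE 0.16, edgeR adjusted p = 0.0088) were higher by less than the fold threshold. The chaperones Calr and Pdia3 were lower by less than it. These differences under the threshold are close in size to the median shift of 0.57 that scaling by total counts brought. Psmb8, a catalytic subunit of the immunoproteasome, was at 12.9, 8.70, 11.9 and 18.2 CPM in controls and at 22.5, 27.6, 42.6 and 39.1 CPM after cisplatin. The groups were separate, and cisplatin 4 and 6 were the highest. The log2 fold change was 1.35 (SE 0.28, edgeR adjusted p = 0.0032). Tap2, a chain of the transporter that brings peptides into the endoplasmic reticulum, was at 33.0, 25.5, 31.2 and 37.4 CPM in controls and at 43.5, 54.7, 57.2 and 53.4 CPM after cisplatin. All cisplatin values were above the controls, and the log2 difference of 0.72 (SE 0.17, edgeR adjusted p = 0.0057) passed the adjusted p but not the fold threshold. H2-Q2, a nonclassical class I gene with low counts, was at 2.04, 2.95, 2.35 and 2.12 CPM in controls and at 8.41, 7.20, 12.7 and 9.99 CPM after cisplatin, and its groups did not overlap. It rose by 2.01 on the log2 scale (SE 0.28, edgeR adjusted p = 0.00031).

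The remaining class I genes were not called. B2m, the light chain shared by all class I molecules, was at 1261, 609, 1192 and 359 CPM in controls and at 694, 1166, 462 and 513 CPM after cisplatin. The controls alone spanned the whole range of the cisplatin values, with controls 1 and 3 and cisplatin 3 high. Its log2 difference was -0.27 (SE 0.43, edgeR adjusted p = 0.63), and scaling by total counts turned it to 0.30. H2-T23, the mouse Qa-1 gene that is a ligand of NK receptors, had 173 ± 54.7 CPM in controls and 156 ± 30.0 CPM after cisplatin (SD, n = 4 each). H2-Q6 and H2-Q7, of the Qa-2 group, had log2 differences of -0.28 (SE 0.23) and -0.42 (SE 0.27). H2-T23, H2-Q6 and H2-Q7 each change sign under scaling by total counts. H2-Q10 differed between cisplatin libraries, with 0.682 and 0.935 CPM in cisplatin 1 and 3, 4.76 and 3.73 CPM in cisplatin 4 and 6, and 0.758 to 1.81 CPM in controls. H2-K1, H2-D1 and the H2-Q genes are near-identical in places, so reads could be split among them by the counting, and the values of single H2-Q genes are uncertain. The 6 H2-M genes that were not tested had 6 reads in all libraries together.

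Per kilobase of the gene length given in the table, the mean level of B2m was 995 CPM per kb in controls and 824 after cisplatin. The mean levels of H2-K1 were 177 and 422 CPM per kb, and those of H2-D1 were 177 and 365. B2m therefore stayed above each single heavy chain in level per length, in both groups.

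Of the MHC class II genes, 4 of 5 fell. H2-Ab1, the beta chain of the I-A molecule, was at 174, 171, 176 and 209.9 CPM in controls and at 33.8, 42.9, 26.9 and 57.5 CPM after cisplatin. The highest cisplatin library remained below the lowest control. The mean went from 183 ± 18.1 to 40.3 ± 13.2 CPM (SD, n = 4 each), with a log2 fold change of -2.18 (SE 0.23, edgeR adjusted p = 6.9e-05). H2-Ob, a subunit of the H2-O molecule that restrains peptide loading and is known from B cells, was at 2.21, 4.39, 3.34 and 3.38 CPM in controls and at 0.819, 0.275, 0.220 and 0.714 CPM after cisplatin. The groups were separate, although the level was low in both. This was a log2 fold change of -2.68 (SE 0.46, edgeR adjusted p = 0.0010).

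The peptide-loading molecule H2-M was affected unevenly. H2-DMb1, a beta chain, was at 28.9, 22.8, 32.4 and 25.6 CPM in controls and at 12.2, 14.7, 12.01 and 10.7 CPM after cisplatin, and the groups did not overlap. The log2 fold change of H2-DMb1 was -1.14 (SE 0.18, edgeR adjusted p = 0.00070). H2-DMb2, the other beta chain, was at 2.21, 3.75, 3.34 and 2.91 CPM in controls and at 1.59, 1.43, 0.586 and 0.634 CPM after cisplatin. All cisplatin values were below the controls. It had a log2 fold change of -1.49 (SE 0.39, edgeR adjusted p = 0.011). The alpha chain H2-DMa was not called, at 13.9, 16.4, 14.2 and 18.1 CPM in controls and at 15.1, 10.7, 22.4 and 25.5 CPM after cisplatin. Its cisplatin values lay both below and above the controls, with cisplatin 4 and 6 the highest, and the log2 difference was 0.23 (SE 0.27, edgeR adjusted p = 0.50). Scaled by total counts, 2 class II genes were called down in place of 4, since H2-DMb1 (-0.57) and H2-DMb2 (-0.90) no longer passed. With the replicate block, H2-DMb2 had a log2 fold change of -0.85 (adjusted p = 0.096).

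Opposite changes occurred among neighboring genes. On chromosome 17 (GRCm38), H2-DMb1 occupies 34153072 to 34160230, Psmb8 occupies 34197721 to 34201454, Tap2 occupies 34203527 to 34216321, H2-Ob occupies 34238903 to 34245907 and H2-Ab1 occupies 34263209 to 34269418. Psmb8, which rose, and Tap2 thus lie between class II genes that fell. Chromosome 17 held 20 of the 75 genes and 14 of the 53 tested.

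Markers of immune cells, among them those that carry class II, went in both directions. The macrophage and dendritic cell list, 9 of 18 genes with usable counts, summed to 88.0 to 156 CPM in controls and 132 to 198 CPM after cisplatin. Of this sum, Cd14 alone made up 7.76 ± 1.12 CPM in controls and 81.2 ± 18.2 CPM after cisplatin (SD, n = 4 each). Of the 9 genes, 22.2% were called up and 22.2% down, against 19.2% and 15.7% of all genes tested. In that list Cd14 and Itgam rose, by log2 fold changes of 3.39 (SE 0.21) and 3.07 (SE 0.37), while Cx3cr1 and Ccr2 fell, with log2 fold changes of -3.06 (SE 0.60) and -1.85 (SE 0.47), and Clec9a, Xcr1, Flt3, C1qb and Lyz2 were not called. The B cell list (3 of 9 genes) summed to 21.5 to 27.2 CPM in controls and 6.10 to 15.4 CPM after cisplatin. There Ighm was at 21.5 ± 2.28 and 2.41 ± 1.04 CPM, Cd79a rose by 2.40 on the log2 scale and Cd79b was not called (0.13, SE 0.30). The T cell list (5 of 13 genes) summed to 11.6 to 19.1 CPM in controls and 3.81 to 8.96 CPM after cisplatin. In it Cd8a was called down (-3.43, SE 0.49), Cd4, Trac and Lck were not called, and Cd3g was not tested. Lck was at 3.29 ± 0.564 and 3.34 ± 0.906 CPM. The NK cell list (3 of 10 genes) summed to 1.49 to 4.43 CPM in controls and 0.715 to 2.14 CPM after cisplatin. Nkg7 was called down (-3.79, SE 0.53), Eomes was not called (0.66, SE 0.54), and Gzma was not tested. Neutrophil genes (6 of 11) summed to 4.07 to 5.82 CPM in controls and 13.4 to 25.0 CPM after cisplatin, with Mpo at 0 reads. The part of these cells in the class II result was not tested.

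**Figure D2:**
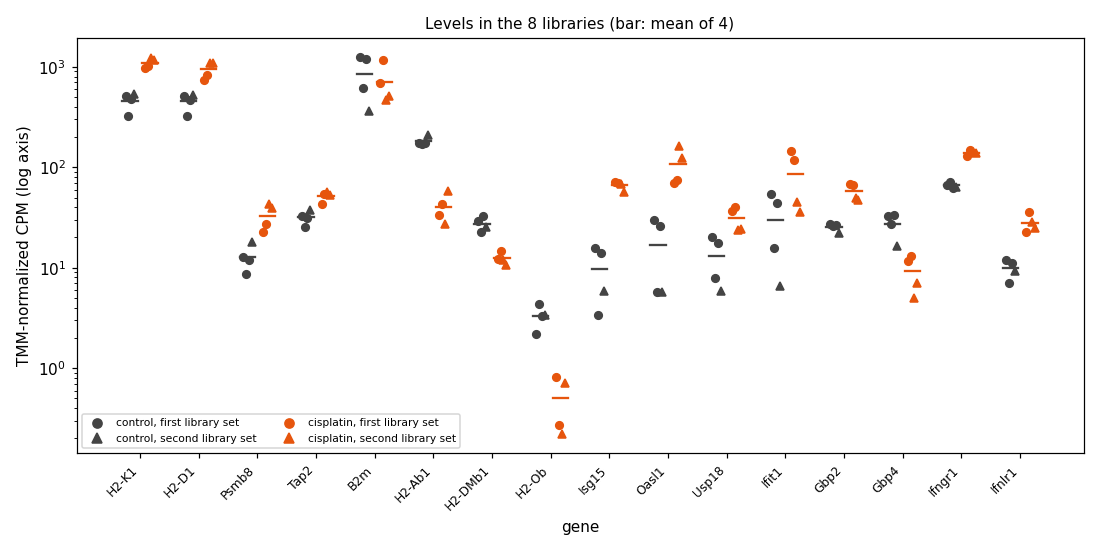
TMM-normalized CPM (y axis, log scale) of 16 genes (x axis) in each library, with circles for the first and triangles for the second library set, dark symbols for controls, orange for cisplatin and a bar for the mean of 4. H2-Ab1 lies at 171 to 209.9 CPM in controls and 26.9 to 57.5 CPM after cisplatin, while H2-K1 lies at 320.1 to 534 CPM and 982 to 1232 CPM.

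Among interferon-induced genes called up, the 5 largest log2 fold changes were those of Ifi27l2b, Isg15, Oasl1, Oas1a and Ifi35. Isg15, a ubiquitin-like protein that is attached to other proteins in response to type I interferon, was at 15.9, 3.35, 13.95 and 5.90 CPM in controls and at 71.8, 69.6, 67.9 and 56.5 CPM after cisplatin. The cisplatin values were close together and all above the controls, among which controls 1 and 3 were the high ones. The log2 fold change was 2.77 (SE 0.43, edgeR adjusted p = 0.00061). Oasl1, a regulator of the antiviral response related to the oligoadenylate synthetases, was at 30.0, 5.74, 26.2 and 5.74 CPM in controls and at 70.1, 74.0, 164 and 123 CPM after cisplatin. Here cisplatin 4 and 6 were the highest, unlike in most genes of the list. Oasl1 rose by 2.67 on the log2 scale (SE 0.58, edgeR adjusted p = 0.0042).

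Ifi35, a partner of the interferon-induced protein Nmi, was at 20.01, 13.9, 23.9 and 24.2 CPM in controls and at 65.3, 58.7, 57.2 and 57.7 CPM after cisplatin, with no overlap. Ifi35 rose by 1.54 on the log2 scale (SE 0.19, edgeR adjusted p = 0.00017). Ifi27l2b, of the Ifi27 family, had 3 reads in control 1 and 0 in the other controls, against 6.11 to 9.66 CPM after cisplatin. The ratio of summed counts, cisplatin over control, was 140 with a 95% interval of 47.6 to 680 that covers counting error only. It was called up by edgeR (adjusted p = 6.1e-05), and its near relatives in the Ifi27 family could share reads with it.

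Oas1a, which makes the 2'-5' oligoadenylates that activate RNase L, was at 18.1, 5.11, 15.02 and 7.86 CPM in controls and at 42.1, 49.3, 20.4 and 22.1 CPM after cisplatin. The lowest cisplatin value, of cisplatin 4, was just above the highest control, of control 1. Its log2 fold change was 1.54 (SE 0.43, edgeR adjusted p = 0.015). Usp18, the protease that removes Isg15 and restrains the type I receptor, was at 20.5, 7.90, 17.8 and 5.90 CPM in controls and at 36.9, 40.6, 23.6 and 24.3 CPM after cisplatin, again with controls 1 and 3 and cisplatin 1 and 3 the higher ones. For Usp18 the log2 fold change was 1.27 (SE 0.40, edgeR adjusted p = 0.023). The call of Usp18 depended on single libraries, with adjusted p = 0.067 without control 2, 0.052 without cisplatin 1 and 0.058 without cisplatin 3.

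The guanylate-binding proteins, GTPases that act against intracellular pathogens, were tested for 7 genes in 2 clusters, while Gbp2b, Gbp5 and Gbp6 were not analyzed here. Of the 3 genes tested on chromosome 3, 2 rose and the log2 differences were 0.57 to 1.24. Gbp2 was at 27.2, 26.3, 26.8 and 22.0 CPM in controls and at 67.4, 66.5, 49.9 and 47.3 CPM after cisplatin, without overlap, and its log2 fold change was 1.18 (SE 0.17, edgeR adjusted p = 0.00043). Gbp3 was at 52.1, 29.5, 42.3 and 16.5 CPM in controls and at 109, 105, 67.6 and 49.8 CPM after cisplatin. It was called up with overlapping groups, since cisplatin 6 lay below control 1. The log2 fold change of Gbp3 was 1.24 (SE 0.36, edgeR adjusted p = 0.018), and the call was lost without control 2 (adjusted p = 0.055) and without control 5, where the log2 fold change was 0.997 and just under the threshold. Gbp7 was not called, at 0.57 (SE 0.37).

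Of the 4 Gbp genes tested on chromosome 5, 2 fell and the log2 differences were -4.79 to -0.85. Gbp4 was at 32.6, 27.4, 33.7 and 16.4 CPM in controls and at 11.7, 13.1, 4.98 and 6.98 CPM after cisplatin. The groups did not overlap, and within each group the library or libraries of the second set were the lowest. Its log2 fold change was -1.57 (SE 0.34, edgeR adjusted p = 0.0041), but -0.99 when scaled by total counts, where the call was lost. Gbp10 was at 7.17, 1.91, 6.90 and 1.42 CPM in controls and at 0.0910, 0.330, 0.146 and 0 CPM after cisplatin, from 214 and 10 reads in all. Its log2 fold change was -4.79 (SE 0.80, edgeR adjusted p = 0.00095). Gbp8 and Gbp9, at -0.98 (SE 0.44) and -0.85 (SE 0.35), were called down without control 5 or without cisplatin 3, so that 4 interferon-induced genes were down in place of 2. Gbp4, Gbp8 and Gbp9 overlap on the same strand in the annotation, and Gbp10 overlaps Gm43302, so their reads may not be cleanly separated.

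Ifitm2, a membrane protein that blocks virus entry, was at 24.8, 26.1, 24.0 and 25.9 CPM in controls and at 48.8, 52.8, 48.0 and 68.8 CPM after cisplatin. The groups were far apart relative to their spread. The log2 fold change was 1.11 (SE 0.16, edgeR adjusted p = 0.00038) and 0.99 without cisplatin 6, just under the fold threshold. Ifitm2 is the ninth gene called up and is named here after its values were seen.

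Several textbook interferon-induced genes were not called. Ifit1, which binds foreign RNA caps, was at 54.3, 15.9, 44.0 and 6.53 CPM in controls and at 144, 118, 45.5 and 35.5 CPM after cisplatin. Cisplatin 1 and 3 were far above the controls, while cisplatin 4 and 6 lay within their range. Its log2 difference was 1.51 (SE 0.65, edgeR adjusted p = 0.081), and DESeq2 gave an adjusted p of 0.037. Ifit2, Mx1 and Iigp1, further antiviral and antiparasitic effectors, had log2 differences of 0.20 (SE 0.37), 0.51 (SE 0.51) and -0.23 (SE 0.41), and that of Iigp1 changes sign under scaling by total counts. Ifi203, a DNA-binding protein of the Ifi200 family, was at 93.0, 65.7, 72.2 and 16.2 CPM in controls and at 55.0, 44.8, 7.98 and 14.5 CPM after cisplatin, at -1.01 (SE 0.64, edgeR adjusted p = 0.22). The libraries of the second set were the lowest of their group in both. The 6 genes of the Ifi200 family tested, on chromosome 1, had log2 differences from -1.49 to 0.74 and gave 0 calls by edgeR, 0 at an unadjusted p under 0.05 and 0 by DESeq2. The 4 Ifit genes tested, on chromosome 19 and without Ifit3 and Ifit3b, ran from -0.90 to 1.51 and gave 0 calls by edgeR, 2 at an unadjusted p under 0.05 and 1 by DESeq2.

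Within groups, the same libraries were high in many interferon-induced genes. In 23 of the 28 interferon-induced genes (82.1%), both cisplatin 1 and 3 lay above both cisplatin 4 and 6, an order found in 36.2% of all genes tested. Among controls, 1 and 3 lay above 2 and 5 in 21 of the 28 genes (75.0%), against 15.6% of all genes tested. This pair of orders was noticed in the data and is a description. In class I, cisplatin 1 and 3 lay above in 3 of 10 genes and cisplatin 4 and 6 above in 6 of 10, and controls 1 and 3 lay above in 3 of 10. For the 7 signaling genes these orders of cisplatin 1 and 3 and of controls 1 and 3 were found in 3 and 5 genes, and no difference between lists was tested. Summed nephron markers separated the same cisplatin libraries. The 12 proximal tubule markers summed to 1407 and 1253 CPM in cisplatin 1 and 3, and to 8870 and 14972 CPM in cisplatin 4 and 6. Of these sums, Kap alone made up 544 and 229 CPM in cisplatin 1 and 3, and 6220 and 11022 CPM in cisplatin 4 and 6. Lrp2 and Slc5a12 did not separate these libraries, and the other markers of the list did. The 7 other nephron markers summed to 5512 and 3527 CPM in cisplatin 1 and 3 and to 2156 and 1085 CPM in cisplatin 4 and 6. The part of these markers in the interferon-induced values was not tested.

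The treatment difference could be compared within each set. On the log2(CPM + 1) scale, which understates differences of low genes, the median difference over the 28 genes was 0.54 in the first set and 0.96 in the second, where control 5 is the only control. The direction was the same in both sets for 27 of 28 interferon-induced genes, 8 of 10 class I genes, 4 of 5 class II genes and 48 of all 53, against 7559 of all 9141 genes tested. The class I and class II shares were thus no higher than that of all genes. With the library set as a covariate, edgeR called 12 interferon-induced genes up and 2 down, 3 class I genes up and 4 class II genes down, against 19.3% of all genes up and 16.6% down. Ifit1 (2.04, SE 0.36), Oas2 (1.57, SE 0.26) and Ifi204 (1.16, SE 0.28) were the genes added.

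**Figure D3:**
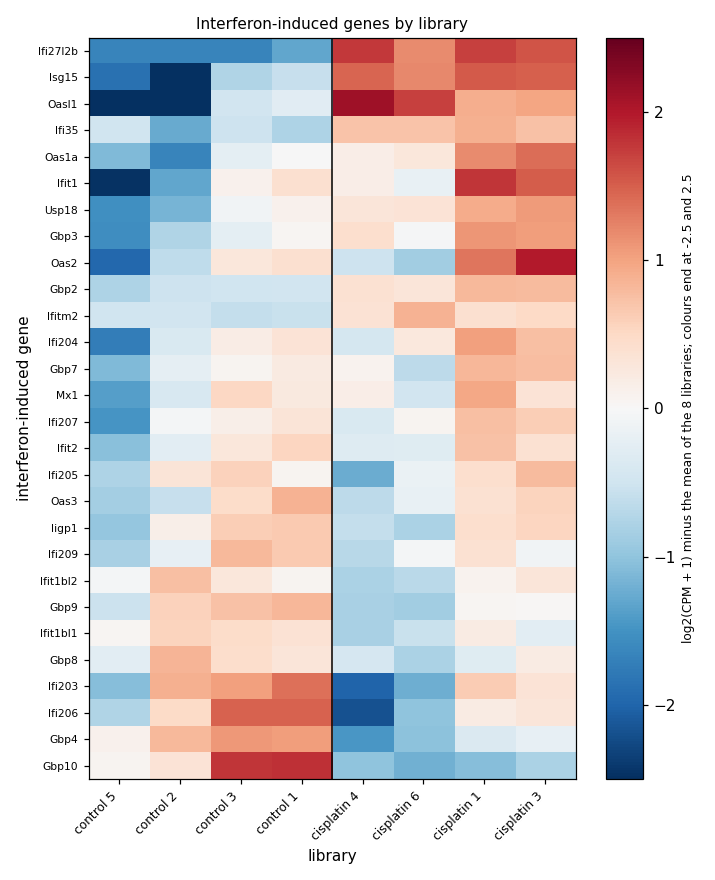
Heat map of the 28 interferon-induced genes (rows, ordered by log2 fold change) in the 8 libraries (columns, controls left of the line), colored by log2(CPM + 1) minus the gene's mean over the libraries, with the color scale ending at -2.5 and 2.5. Control 5 and cisplatin 4 and 6 are the low columns of their group in most rows, and cisplatin 1 and 3 were above cisplatin 4 and 6 in 23 of the 28 genes.

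**Figure D4:**
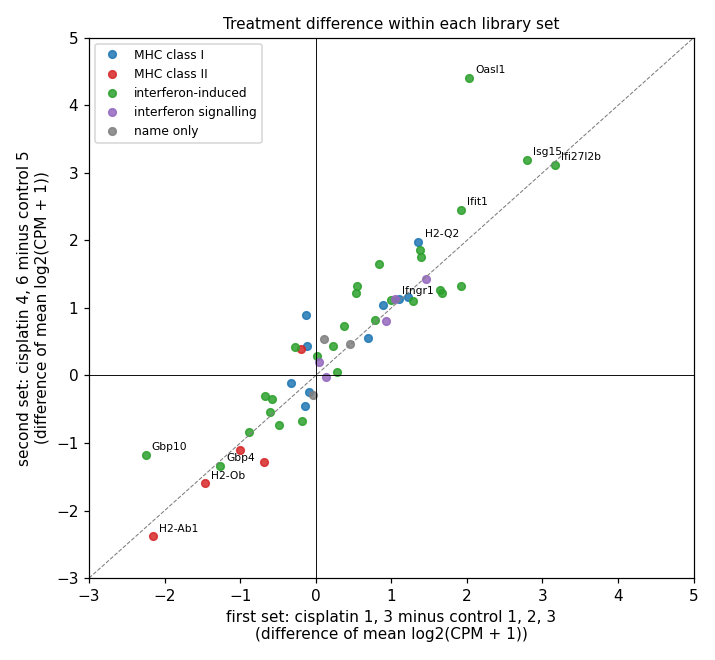
Difference of mean log2(CPM + 1) between cisplatin and control in the first library set (x axis, cisplatin 1 and 3 minus controls 1, 2 and 3) and in the second (y axis, cisplatin 4 and 6 minus control 5), 1 point for each gene tested except 2 signaling genes, and a dashed line of equality. Isg15 lies at 2.80 and 3.19, Oasl1 at 2.03 and 4.40 and H2-Ab1 at -2.16 and -2.38.

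Without cisplatin 1 and 3, more interferon-induced genes were called down than up. Cisplatin 4 and 6 against the 4 controls gave 5 interferon-induced genes up and 8 down, 5 class I genes up, 4 class II genes down, 2 signaling genes up and 1 down, against 21.4% of all genes called up and 20.5% called down. Isg15 (2.68, SE 0.52) and Oasl1 (3.09, SE 0.65) stayed up. Gbp2 (0.93), Gbp3 (0.75), Oas1a (0.89) and Usp18 (0.88) were no longer called, and Ifi203 (-2.46, SE 0.67) was called down. H2-Q10 (1.84, SE 0.38) joined the class I genes called up. Within the cisplatin group, library set and Y-linked counts go together and cannot be told apart. Cisplatin 4 and 6 are of the second set and controls 1, 2 and 3 of the first. Treatment and library set are therefore mixed in the fit without cisplatin 1 and 3. Against control 5 alone, 20 of the 28 interferon-induced genes were higher in cisplatin 4 and 6 on the log2(CPM + 1) scale. Of all 9141 genes tested, 4604 were higher in this comparison. Control 5 lay below controls 1, 2 and 3 in 23 of the 28 genes, against 34.9% of all genes tested.

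The 2 signaling genes that rose encode receptor chains. Ifngr1, the ligand-binding chain of the interferon gamma receptor, was at 66.8, 71.0, 62.4 and 63.4 CPM in controls and at 131, 149, 142 and 139 CPM after cisplatin. The groups were narrow and did not overlap, with a log2 fold change of 1.09 (SE 0.12, edgeR adjusted p = 0.00010). Ifnlr1, the specific chain of the interferon lambda receptor, was at 12.04, 7.02, 11.1 and 9.20 CPM in controls and at 22.9, 35.7, 28.3 and 24.7 CPM after cisplatin. All cisplatin values were above the controls, and the log2 fold change was 1.51 (SE 0.23, edgeR adjusted p = 0.00052).

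Irf9, the DNA-binding part of the complex activated by type I interferon, had 67.1 ± 25.3 CPM in controls and 107 ± 35.7 CPM after cisplatin (SD, n = 4 each), with a log2 difference of 0.68 (SE 0.31, edgeR adjusted p = 0.10). Irf8, a factor of myeloid cells and B cells, differed by 0.10 (SE 0.16, edgeR adjusted p = 0.637). The interferons themselves were at the limit of detection. The 16 interferon genes had 0 reads in the controls, where 3 counts correspond to 0.185 to 0.222 CPM, and 18 reads in the cisplatin libraries, spread over 7 genes with at most 5 reads of 1 gene in 1 library. Ifng had 0 reads in every library and Ifnb1 had 3 reads in all, so a change of the ligands was not detectable at this depth.

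Scaling bears on all of these values. With total counts in place of TMM, the log2 fold changes of all genes shifted by a median of 0.57, and 79.8% of the calls were up instead of 55.0%. Under it 34.7% of all genes were called up and 8.78% down, and the module gave 6 class I genes up, 2 class II genes down, 12 interferon-induced genes up and 1 down, and 4 signaling genes up. Since this shift is smaller than the fold threshold, only genes without a call could change sign, and 11 genes without a call changed sign between scalings.

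Further genes of the pathway, outside the naming rule, were taken from lists of known genes. Of 32 other interferon-induced genes tested, 5 rose (15.6%) and 4 fell (12.5%), against 19.2% and 15.7% of all genes tested. Their median log2 difference was 0.53. All 4 cisplatin libraries lay above all 4 controls in 11 of the 32 genes and below them in 3. Over all genes tested these shares were 23.7% and 22.5%. No difference between this list and all genes was tested. The chemokine Cxcl10 rose from 10.98 ± 2.84 to 44.1 ± 5.87 CPM (SD, n = 4 each), which is 2.005 on the log2 scale (SE 0.22, edgeR adjusted p = 7.6e-05). Cxcl9, a ligand of the same receptor that is known as an interferon gamma target, fell from 6.73 ± 2.74 to 0.613 ± 0.189 CPM, or by -3.41 in log2 units (SE 0.40, edgeR adjusted p = 0.00012). Nos2, the inducible nitric oxide synthase, fell as well (-3.68, SE 0.44). Socs1, a feedback inhibitor of JAK kinases, rose by 2.47 (SE 0.50), Tor3a by 1.52 (SE 0.18), Xaf1 by 1.43 (SE 0.40) and the RNA sensor Dhx58 by 1.37 (SE 0.38). Samd9l (-1.19, SE 0.36) and Phf11b (-1.06, SE 0.35) were the other genes called down. These calls depended on single libraries, that of Phf11b being kept in 3 and that of Samd9l in 5 of the 8 settings that leave out 1 library, and the list gave 2 calls down without control 3, without cisplatin 4 or without cisplatin 6. Without cisplatin 1 and 3, Dhx58 (1.01) and Xaf1 (0.99) did not pass the adjusted p.

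Of 16 other genes of antigen processing tested, 2 rose (12.5%) and 1 fell (6.25%), against 19.2% and 15.7% of all genes tested. Cd80, a costimulatory ligand of T cells, rose by 3.20 (SE 0.54) from a very low level of 0.176 ± 0.135 to 1.72 ± 0.297 CPM (SD, n = 4 each). The lysosomal protease Ctsd rose by 2.21 (SE 0.32), and legumain (Lgmn), an endosomal protease, fell by 1.40 on the log2 scale (SE 0.20, edgeR adjusted p = 0.00032). Without cisplatin 1 the list gave 2 calls down. The endoplasmic reticulum chaperones of class I, Calr, Canx and Pdia3, differed by -0.70 (SE 0.16), -0.41 (SE 0.23) and -0.43 (SE 0.16). Calr and Pdia3 passed the adjusted p (0.0054 and 0.045, edgeR) but not the fold threshold, and Canx passed neither. Calr lay at 1167 to 1572 CPM in controls and at 787 to 835 CPM after cisplatin, without overlap. Of 12 genes of nucleic acid sensing and interferon receptor signaling tested, 1 rose (Rnaseh2a, 1.64, SE 0.41) and 1 fell (Tlr9, -1.18, SE 0.43). That is 8.33% in each direction, and no difference between these lists and all genes was tested. The call of Tlr9 was lost when any library other than control 5 was left out (adjusted p from 0.054 to 0.12).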

How the data were processed

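Kidney RNA of 8 mice was sequenced as paired-end libraries. The authors deposited raw read counts per gene. Clean reads had been prepared with fastp and aligned to GRCm38 with HISAT2, according to the methods and the submitters' processing notes. The counting tool, annotation and strand setting were not given in the sources used here, and the library kit differs between the labels and the methods, so overlapping and antisense genes cannot be fully separated. Of 53715 rows, 35880 held 8 values and were used. The other 17835 held 10 values, with 2 unnamed extra columns, and were not used. Totals therefore cover part of each library.

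Differential expression was tested with edgeR 4.0.16 under R 4.3.3 (default expression filter, TMM, quasi-likelihood test, Benjamini-Hochberg adjustment over all 9141 genes tested). CPM values are TMM-normalized, except those of 3 counts, which use the total alone. The SE is the absolute log2 fold change divided by the square root of F. DESeq2 1.42.0, other scalings and filters, the replicate block and each library left out were alternatives, as were 3 settings on the library sets chosen after seeing the data. The procedure was tested on simulated counts. The genes named were a fixed set of well-known ones, the 6 most abundant of each list and the 5 largest calls per direction, and others are named where a count or library turned on them. The members and lists were chosen with earlier results of these data known. Of the 75 members, 68 were at the same place in GENCODE M21. Promoter sequences are those of RefSeq, printed outside annotated exons. Results of 2 signaling genes are counted in their list but are not reported here.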

Additional observations from a re-analysis of the deposited data

Results flagged for a closer look

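Among 106 groups of 4 libraries examined (53 genes in 2 groups), 5 held a library whose gap to its nearest neighbor took up more of the group's range than Dixon's 95% limit allows, and chance alone gives about 1 in 20 groups. H2-Ab1 was at 209.9 CPM in control 5, where the next highest control was at 176 CPM. Gbp2 was at 22.0 CPM in control 5, below the next control at 26.3 CPM, and Irf4 was at 0.629 CPM in control 5, with the next control at 2.39 CPM. Irf2bp1, which shares only a name stem with the module, was at 33.4 CPM in cisplatin 1 and at 42.0 CPM or more in the other cisplatin libraries. Ifi27l2b was at 0.266 CPM in control 1, from 3 reads, and at 0 in the other controls. Control 5 gave 3 of the 5 cases and is the control that stands apart along the second principal component.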

How the results depend on the processing

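No called member changed direction under any alternative run, which scaling by total counts could not have shown, since its shift is smaller than the fold threshold. Counts of calls that moved by more than 1.5 times are given here. With total counts as the scale, 2 class II and 1 interferon-induced members were called down and 4 signaling members up, and the other lists gave 6 antigen processing genes up and 0 down, 13 other interferon-induced genes up and 2 down, and 4 sensing genes up and 0 down. With at least 10 counts in every library, which removes low genes, 2 class II members and 1 interferon-induced member were down, 1 other antigen processing gene was up and 2 other interferon-induced genes were down. Cisplatin 4 and 6 alone gave 5 interferon-induced members up and 8 down, 1 signaling member down and 2 other antigen processing genes down. The library set as a covariate gave 9 other interferon-induced genes up and 0 sensing genes down, and the first set alone 2 other interferon-induced genes down. The cause of these moves was not tested.

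Leaving out each library in turn gave 3 to 4 class I members up, 4 class II members down, 7 to 9 interferon-induced members up and 2 to 4 down, and 2 signaling members up. The same settings gave 1 to 2 antigen processing genes down, 2 to 5 other interferon-induced genes down and 0 to 1 sensing genes down.

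Libraries numbered 1 and 3 exist in both groups, and with the replicate block 3 class I members were up, 3 class II members down, 11 interferon-induced members up and 3 down, 2 signaling members up and 2 other interferon-induced genes down. The correlation of deviations from the group means was 0.25 for number 1 and 0.28 for number 3, but control 2 correlated with cisplatin 1 at 0.36, so the numbers are taken as shared names. That estimate rests on controls 1 and 3 against cisplatin 1 and 3. At this depth, genes at or under 3 counts, such as the interferons, could not be compared.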
